A study of Drosophila melanogaster with 2 samples.

Results

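The mitochondrial ribosomal protein genes of Drosophila melanogaster were examined in ChIP-seq of ADD1, which carries an ADD domain and is known to associate with heterochromatin protein 1. They were taken as the protein-coding genes of the Ensembl annotation whose symbol starts with mRpL or mRpS followed by a digit. This gave 73 genes of the 13968 protein-coding genes on the chromosomes compared, 47 for the large and 26 for the small mitoribosomal subunit. Chromatin came from whole embryos aged 0 to 14 hours, of both sexes, from a transgenic line that stably expressed ADD1 (CG8290) with GFP at its C terminus, and was sonicated to 200 to 800 bp. There was 1 group of 2 biological replicates, numbered 2 and 3, and no control sample was analysed here. In the labels' free text both samples are input controls, but the antibody given for them is CG8290, so the values were treated as ChIP. Whole embryos mix all cell types, so binding in a few cells and weak binding in many cannot be told apart.

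The authors deposited 30000 regions per replicate, a pooled list of 30000 from both, and a final list of 2478 optimal peaks, which were the 2478 strongest pooled regions. Each region has a summit and a signal, the authors' own value on an unstated scale, so regions were ranked and described by it only inside their own list. A gene was counted as having an optimal summit when a summit lay within 500 bp of any of its annotated start sites. The replicate lists hold background regions as well as peaks, so in these the 2478 strongest regions were also counted separately. Read depth is unknown, and the 95% exact (Clopper-Pearson) intervals below cover the counting of genes only.

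Mitochondria carry their own ribosomes, which translate the few proteins encoded in mitochondrial DNA, chiefly core subunits of the respiratory chain and of ATP synthase. The ribosomal RNAs are made inside the organelle, but all proteins named here are encoded in the nucleus, made in the cytosol and imported. Like a bacterial ribosome, the mitoribosome has a small subunit that decodes the messenger and a large subunit that joins amino acids. Many of its proteins have bacterial counterparts, and others occur in mitochondria alone. Loss of these proteins impairs respiration, and some are known to be needed for growth in Drosophila.

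The sequences under 8 summits are shown because these summits are among those that lay upstream of the nearest start of their member. The mRpL23 summit lay inside that gene, downstream of the first of its 3 starts. They are the 8 of highest signal among the members on chromosome arms 2L, 3L, 3R and X, so stronger and weaker members elsewhere are not shown. They were read from the RefSeq sequence of the dm6 assembly on the plus strand, up to 100 bases to each side of the summit and cut where an annotated exon begins. Their coordinates are chr3R:15229437-15229637 for mRpS10, chr2L:13835376-13835563 for mRpS23, chr2L:16329149-16329349 for mRpL4 and chr3L:2373502-2373596 for mRpL23. Those of the other 4 are chrX:4322330-4322530 for mRpL33, chr2L:4850484-4850640 for mRpS2, chr3R:24163675-24163875 for mRpS24 and chr2L:10386394-10386594 for mRpS7. Capitals mark matches to any of 8 searched promoter motifs on either strand, described with the motif results.
mRpS10: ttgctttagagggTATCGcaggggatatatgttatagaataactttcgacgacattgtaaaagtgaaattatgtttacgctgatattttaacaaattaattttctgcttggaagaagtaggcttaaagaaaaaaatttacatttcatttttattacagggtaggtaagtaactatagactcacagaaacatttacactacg
mRpS23: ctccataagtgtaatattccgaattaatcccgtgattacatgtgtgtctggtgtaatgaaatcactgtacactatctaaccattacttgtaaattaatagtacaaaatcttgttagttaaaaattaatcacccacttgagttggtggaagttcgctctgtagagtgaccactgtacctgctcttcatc
mRpL4: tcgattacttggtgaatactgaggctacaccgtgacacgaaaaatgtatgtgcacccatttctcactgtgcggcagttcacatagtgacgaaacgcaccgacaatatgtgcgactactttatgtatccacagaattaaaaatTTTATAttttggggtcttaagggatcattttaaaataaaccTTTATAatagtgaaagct
mRpL23: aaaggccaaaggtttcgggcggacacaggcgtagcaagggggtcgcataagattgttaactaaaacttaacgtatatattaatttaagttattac
mRpL33: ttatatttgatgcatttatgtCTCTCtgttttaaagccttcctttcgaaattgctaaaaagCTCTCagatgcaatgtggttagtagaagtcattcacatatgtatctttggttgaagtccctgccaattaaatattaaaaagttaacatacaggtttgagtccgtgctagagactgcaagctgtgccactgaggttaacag
mRpS2: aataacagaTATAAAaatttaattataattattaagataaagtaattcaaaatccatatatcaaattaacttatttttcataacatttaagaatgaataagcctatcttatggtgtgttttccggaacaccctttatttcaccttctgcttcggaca
mRpS24: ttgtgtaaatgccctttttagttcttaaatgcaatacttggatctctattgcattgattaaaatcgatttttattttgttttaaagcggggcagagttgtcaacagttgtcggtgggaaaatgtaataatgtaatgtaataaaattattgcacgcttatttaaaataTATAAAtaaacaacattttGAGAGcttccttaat
mRpS7: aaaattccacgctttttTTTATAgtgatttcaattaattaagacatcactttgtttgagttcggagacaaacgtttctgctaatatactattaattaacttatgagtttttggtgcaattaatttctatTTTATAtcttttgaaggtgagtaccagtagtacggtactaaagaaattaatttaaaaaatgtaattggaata

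In these stretches GC content ran from 24.8% at mRpS2 to 38.9% at mRpL23. Stretches from mRpS23 and mRpL23 held no searched motif as shown, but the mRpL23 stretch is cut by an exon, and its full window of 100 bases to each side held TATAAA and GAGAG. The TATA letters TATAAA or their complement were centred 45 and 86 bases to the right of the mRpL4 summit, 88 bases to the left of the mRpS2 summit, 70 bases to the right of the mRpS24 summit, and 80 bases to the left and 32 to the right of the mRpS7 summit. The letters GAGAG were centred 77 and 37 bases to the left of the mRpL33 summit and 88 bases to the right of the mRpS24 summit. The mRpS10 stretch held CGATA, centred 85 bases to the left of the summit.

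Of the 73 genes, 16 had an optimal summit within 500 bp of a start site (21.9%, interval 13.1 to 33.1%), against 12.6% of all protein-coding genes. Large subunit genes with a summit were mRpL4, mRpL23, mRpL24, mRpL33, mRpL41, mRpL42, mRpL53 and mRpL54. Their small subunit counterparts were mRpS2, mRpS7, mRpS10, mRpS17, mRpS18B, mRpS22, mRpS23 and mRpS24. The signal of these 16 ran from 135 at mRpL54 to 830.6 at mRpS10, with a median of 257.9, while all 1754 protein-coding genes with an optimal summit had a median of 187.5. By rank, where 1 is the strongest of 2478 peaks, the members' median was 558 and that of the 1754 genes 1176. No test was made of these shares and medians.

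Among large subunit genes with bacterial counterparts, mRpL4 had a signal of 524.6 in the optimal list (rank 80), with 228.9 in replicate 2 (rank 126) and 303.8 in replicate 3 (rank 49). Its protein corresponds to L4 of bacteria, which lines the tunnel through which the new chain leaves. At mRpL23, the counterpart of L23 at the mouth of that tunnel, the optimal signal was 445.2 (rank 124), with 242.9 in replicate 2 (rank 110) and 199.6 in replicate 3 (rank 181). For mRpL33, whose bacterial counterpart L33 lies near the tRNA exit site, the values were 438 in the optimal list (rank 134), 191.8 in replicate 2 (rank 209) and 253.4 in replicate 3 (rank 96). All 3 genes ranked among the strongest 209 regions of every list. The gene for mRpL24, the counterpart of a bacterial assembly-initiating protein, was weaker, at 139.8 in the optimal list (rank 2261), 75.9 in replicate 2 (rank 1983) and 50.1 in replicate 3 (rank 5132). It stood among the 2478 strongest regions of replicate 2 and not of replicate 3.

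Of the large subunit proteins found in mitochondria and not in bacteria, mRpL41 had the strongest peak, at 582.8 in the optimal list (rank 58), 338.2 in replicate 2 (rank 37) and 248.2 in replicate 3 (rank 101). A second optimal summit with a signal of 385.5 (rank 191) lay 416 bp upstream of the same start, and no other member had more than 1. For mRpL42 the signal was 326.3 in the optimal list (rank 303), 158.5 in replicate 2 (rank 346) and 179.2 in replicate 3 (rank 255). Both genes were high in each replicate. The peak at mRpL53 had 172.9 in the optimal list (rank 1420), 63.9 in replicate 2 (rank 2734) and 107.1 in replicate 3 (rank 984). At mRpL54 the values were 135.1 in the optimal list (rank 2407), 57.7 in replicate 2 (rank 3301) and 83.8 in replicate 3 (rank 1713). These last 2 were among the 2478 strongest regions of replicate 3 and not of replicate 2.

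The small subunit gene mRpS10 had the strongest peak of all members, at 830.6 in the optimal list (rank 22), 496.7 in replicate 2 (rank 10) and 333.4 in replicate 3 (rank 36). Its protein is the counterpart of bacterial S10, part of the head of the small subunit. At mRpS2, the counterpart of S2, the signal was 259.4 in the optimal list (rank 550), 161.0 in replicate 2 (rank 325) and 98.7 in replicate 3 (rank 1185). For mRpS24, the mitochondrial form of S3, which lines the entry path of the messenger in bacteria, it was 256.5 (rank 566), with 135.1 in replicate 2 (rank 531) and 114.4 in replicate 3 (rank 831). These 3 genes were among the strongest 2478 regions of both replicates.

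Weaker peaks lay at the other small subunit genes with bacterial counterparts. The mRpS17 peak had 149.7 in the optimal list (rank 1965), 81.9 in replicate 2 (rank 1706) and 61.9 in replicate 3 (rank 3399), and S17 is an early rRNA-binding protein in bacteria. The mRpS7 peak had 147.7 (rank 2026), with 65.1 in replicate 2 (rank 2627) and 85.2 in replicate 3 (rank 1652), and S7 organises the head of the bacterial small subunit. At mRpS18B, related to bacterial S18, the values were 138.3 (rank 2315), 83.7 in replicate 2 (rank 1633) and 58.6 in replicate 3 (rank 3769). Each of these 3 was among the 2478 strongest regions of 1 replicate.

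Of the small subunit proteins found in mitochondria and not in bacteria, mRpS23 had the strongest peak, at 552.4 in the optimal list (rank 71), 310.8 in replicate 2 (rank 53) and 249.8 in replicate 3 (rank 100). At mRpS22 it was 138.3 (rank 2318), with 54 in replicate 2 (rank 3727) and 71.4 in replicate 3 (rank 2511). It was the single optimal member outside the 2478 strongest regions of both replicates.

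By subunit, 8 of 47 large subunit genes (17.0%, interval 7.65 to 30.8%) and 8 of 26 small subunit genes (30.8%, 14.3 to 51.8%) had an optimal summit, and the intervals overlap. Among the strongest regions of replicate 3 alone the counts were 9 of 47 and 5 of 26, and of replicate 2 alone 9 of 47 and 6 of 26. Members with bacterial counterparts had summits in 10 of 45 cases (22.2%), and members found in mitochondria and not in bacteria in 6 of 28 (21.4%). Within the conserved class the count was 4 of 29 for the large subunit (13.8%, interval 3.89 to 31.7%) and 6 of 16 for the small subunit (37.5%, 15.2 to 64.6%). The other class had 4 of 18 large subunit genes (22.2%, 6.41 to 47.6%) and 2 of 10 small subunit genes (20%, 2.52 to 55.6%). All these intervals overlap, and the share of all protein-coding genes was 12.6%.

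Most of the remaining members had weaker regions. The pooled list held a region at 57 of 73 members (78.1%), against 48.9% of protein-coding genes, and 41 of these 57 were outside the optimal list. Among genes with any pooled region, 28.1% of members and 25.7% of protein-coding genes had an optimal summit. The weakest optimal member was mRpL54, at pooled rank 2407, and the strongest outside the list was mRpL27, whose bacterial counterpart reaches into the peptidyl transferase centre, at rank 2533 (1997 in replicate 2 and 4085 in replicate 3). Next came mRpL35 at rank 2690 (2848 and 4517), mRpL37 at 2923 (3226 and 3839) and mRpL20 at 3123 (1511 and 8137), in that order of replicates. They were followed by mRpL18 at 3283 (4542 and 1941) and mRpL43 at 3402 (3858 and 3654).

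The genes of the stalk proteins, which recruit translation factors to the large subunit in bacteria, were without an optimal summit. So were 57 of the 73 members in all, and the stalk genes were picked after their values were seen. The region at mRpL11 had pooled rank 3875 and that at mRpL10 rank 12407, and mRpL12 had a region in replicate 3 alone, at rank 20811. In 8 members no list held a region at a start site: mRpL30, mRpL39, mRpL45, mRpL46, mRpS18C, mRpS33, mRpS34 and mRpS35. Another 8 lacked a pooled region but had one in a replicate list, all but mRpS18A in replicate 3. Lack of a pooled region was less common in members than in genes at large, as 78.1% of members and 48.9% of all protein-coding genes had one. The genes tko and bonsai encode the mitochondrial S12 and S15 proteins under other names and are not counted among the 73. Neither had an optimal summit: tko had pooled rank 7125 (15795 in replicate 2 and 6131 in replicate 3) and bonsai 5504 (5078 and 6827).

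**Figure D1:**
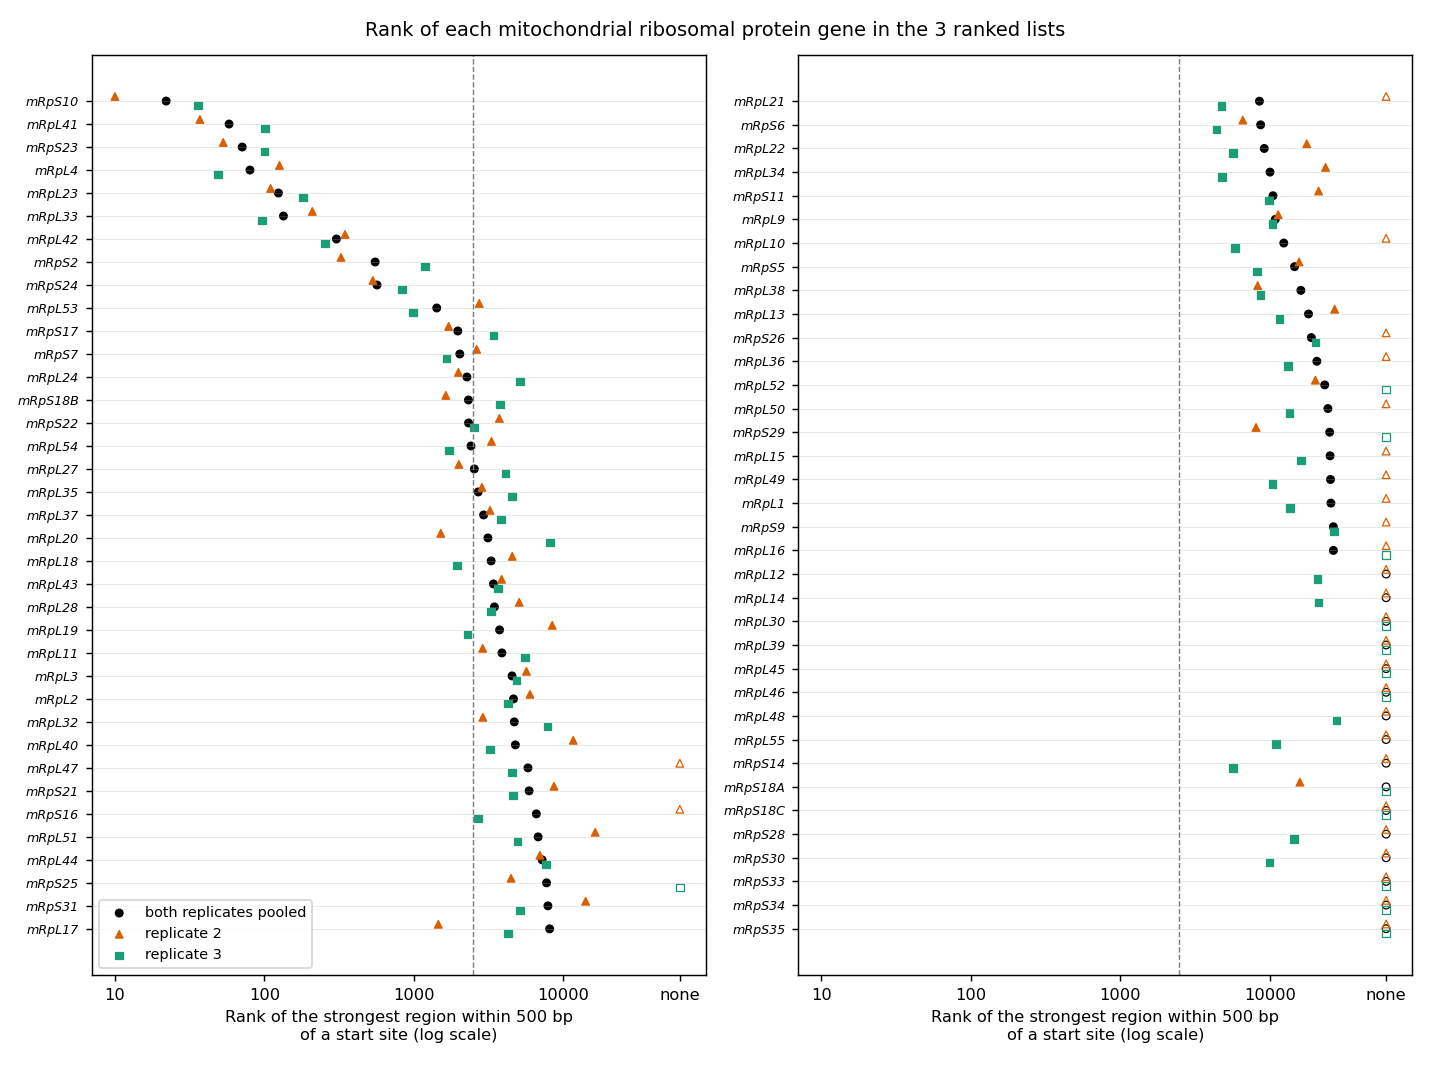
Rank of the strongest region within 500 bp of a start site for each of the 73 genes, on a log axis, in the pooled list (circles), replicate 2 (triangles) and replicate 3 (squares); open symbols at the right mean that the list held no region, and the dashed line marks rank 2478. The 16 genes left of the line in the pooled list run from mRpS10 at rank 22 to mRpL54 at rank 2407.

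Replicate 3 held a region at more members than replicate 2. Any region was present at 46 members in replicate 2 (63.0%, against 45.5% of protein-coding genes) and at 60 in replicate 3 (82.2%, against 50.5%). In 42 members both replicates had a region, in 4 replicate 2 alone and in 18 replicate 3 alone. Of all protein-coding genes, 38.2% had a region in both, 7.37% in replicate 2 alone and 12.3% in replicate 3 alone. Among the 2478 strongest regions the count was 15 members in replicate 2 (20.5%, against 12.3%) and 14 in replicate 3 (19.2%, against 12.4%). Both replicates met this for 9 members (12.3%, against 8.59%), and these were the 9 of highest optimal signal. Outside the optimal list, mRpL17, mRpL20 and mRpL27 were among the strongest in replicate 2, and mRpL18 and mRpL19 in replicate 3. Spearman's rho of the ranks in both replicates was 0.71 over the 42 members and 0.694 over 5329 protein-coding genes with a region in both, a description across genes that share the same libraries.

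All 16 summits lay upstream of the nearest start of the member, from 33 bp at mRpS18B to 404 bp at mRpS23. Upstream placement was seen for 86.2% of the 1754 protein-coding genes with an optimal summit. It was 89.3% for the 1011 of these with the start of an opposite-strand gene within 500 bp upstream, as 14 of the 16 members had. The interval for 16 of 16 was 79.4 to 100% and holds both shares. Counting the strongest pooled region of each gene, 51 of 57 members (89.5%) and 73.4% of protein-coding genes had it upstream. In 14 members the summit was in sequence between genes. At mRpL23 it lay in an intron of a longer mRpL23 transcript, and at mRpL53 in an intron of AGO1. Away from starts, the bodies of the 73 genes held 1 further optimal summit, in mRpS9, 10186 bp from a start, with a signal of 157.4 (rank 1772).

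Summit positions in the replicates differed by a median of 16 bp over the 16 members, measured as distance to the nearest start, and by 50 bp or less in 13 of them. The median over 1742 protein-coding genes with an optimal summit and a region in both replicates was 30 bp, and 65.2% were within 50 bp. These sets are unlike, because the nearest start can differ between replicates where a gene has several. Of the 16 members 13 had 1 annotated start, against 943 of the 1754 genes with an optimal summit. At mRpS10 the summit was 119 bp upstream in replicate 2 and 128 bp upstream in replicate 3. The 3 members beyond 50 bp were mRpL23, mRpS7 and mRpL54. At mRpL23 the summit was 87 bp upstream in replicate 2 and 9 bp downstream in replicate 3. At mRpS7 the strongest region was 339 bp upstream of the start in replicate 2 and 191 bp in replicate 3, and at mRpL54 235 and 117 bp.

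Most member genes share their upstream region with a gene on the opposite strand. A divergent start, that of a gene running the other way, lay within 500 bp upstream in 53 of 73 members (72.6%) and in 29.6% of protein-coding genes. With such a start, 14 of 53 members (26.4%, interval 15.3 to 40.3%) and 24.4% of protein-coding genes had an optimal summit. Without it the shares were 2 of 20 members (10%, 1.23 to 31.7%) and 7.56% of protein-coding genes. In both classes the share of all genes was inside the members' interval, which is wide for the 20 members. Of the 67 members with 1 annotated start site, 13 had a summit (19.4%, 10.8 to 30.9%). The share of such genes in all was 9.18%, below that interval. Among the 67 members it was 11 of 49 (22.4%, 11.8 to 36.6%) with another gene's start within 500 bp, against 19.4%. It was 2 of 18 (11.1%, 1.38 to 34.7%) without, against 4.6%. Whether the arrangement accounts for the members' share was not tested. When 1000 bp were allowed, all 16 members with a summit had a divergent start, and 0 of the 15 members without one had a summit (upper bound 21.8%, against 6.6% of protein-coding genes).

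**Figure D2:**
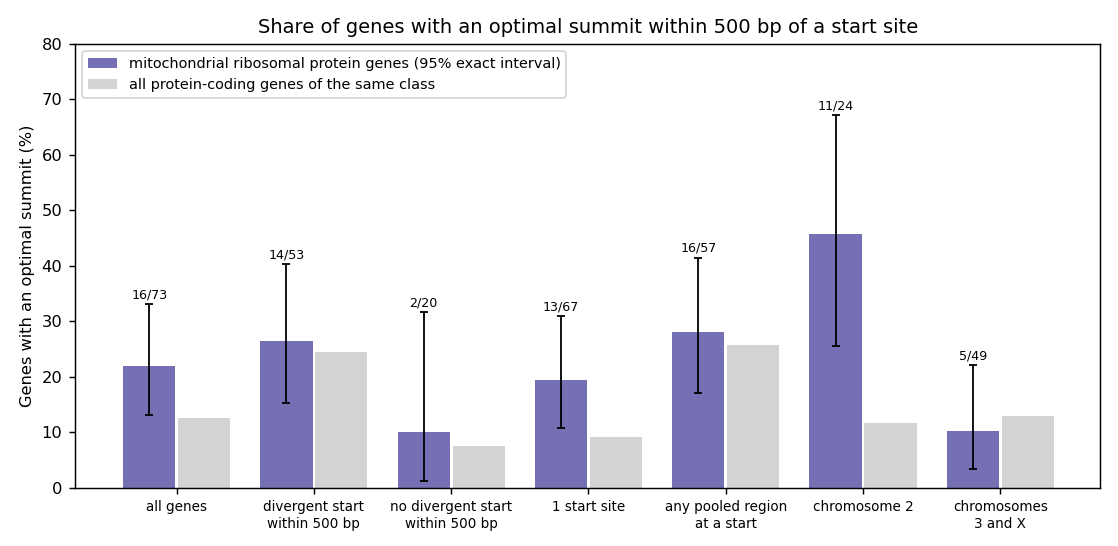
Percent of genes with an optimal summit within 500 bp of a start site, for the 73 members (purple, with the exact 95% interval and the counts above) and for all protein-coding genes of the same class (grey). Members and all genes stand at 21.9% and 12.6% in all, and at 26.4% and 24.4% among genes with a divergent start within 500 bp.

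In 8 of the 16 the partner's start was nearer to the summit than the member's. They were CenG1A (88 bp from the summit, against 404 bp for mRpS23), which encodes an Arf GTPase-activating protein, and Nop60B (33 bp, against 403 bp for mRpS17), the pseudouridine synthase of ribosomal RNA. Mon1, which acts in endosome maturation, lay 57 bp away, against 165 bp for mRpS2. Apc2, of the beta-catenin destruction complex, lay 191 bp away, against 230 bp for mRpS24, and betaggt-I, a subunit of geranylgeranyl transferase, 55 bp, against 163 bp for mRpL24. The phototransduction phospholipase C gene norpA was at 196 bp, against 199 bp for mRpL33. CG5003 was at 181 bp, against 211 bp for mRpS22, and CG15653 at 112 bp, against 130 bp for mRpL54. Which gene of a pair a summit belongs to cannot be told apart from these distances.

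In the other 8 the member's start was nearest. The summit of mRpS10 was 128 bp from its own start and 129 bp from that of Art3, an arginine methyltransferase gene. For mRpS7 the distances were 168 bp, and 232 bp to Cdk1, the mitotic kinase gene. PIG-N, of GPI anchor synthesis, was 89 bp from the mRpL42 summit, against 47 bp for mRpL42 itself. Kua was 295 bp from the mRpS18B summit, against 33 bp for the member. At mRpL53 the summit was 67 bp from the start that this gene shares with CG33155, and 103 bp from that of AGO1, the microRNA Argonaute. CG9004 was 140 bp from the mRpL23 summit, against 87 bp. The divergent starts of CG8079, 762 bp from that of mRpL41, and of CG4440, 793 bp from that of mRpL4, were farther away.

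Taking the closest start-to-start pair within 500 bp, the summit was between both starts in 13 of 14 members (92.9%) and in 67.7% of 1011 protein-coding genes with a divergent start and an optimal summit. Many of those genes have several starts. The exception among the 14 was mRpL23, which has 3 starts, the closest 24 bp from that of CG9004. Among genes with 1 start the summit was between the starts in 11 of 11 members and in 83.2% of 579 genes. These sets are also unlike, because the median distance between both starts was 392 bp in the 11 members and 274 bp in the 579 genes.

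**Figure D3:**
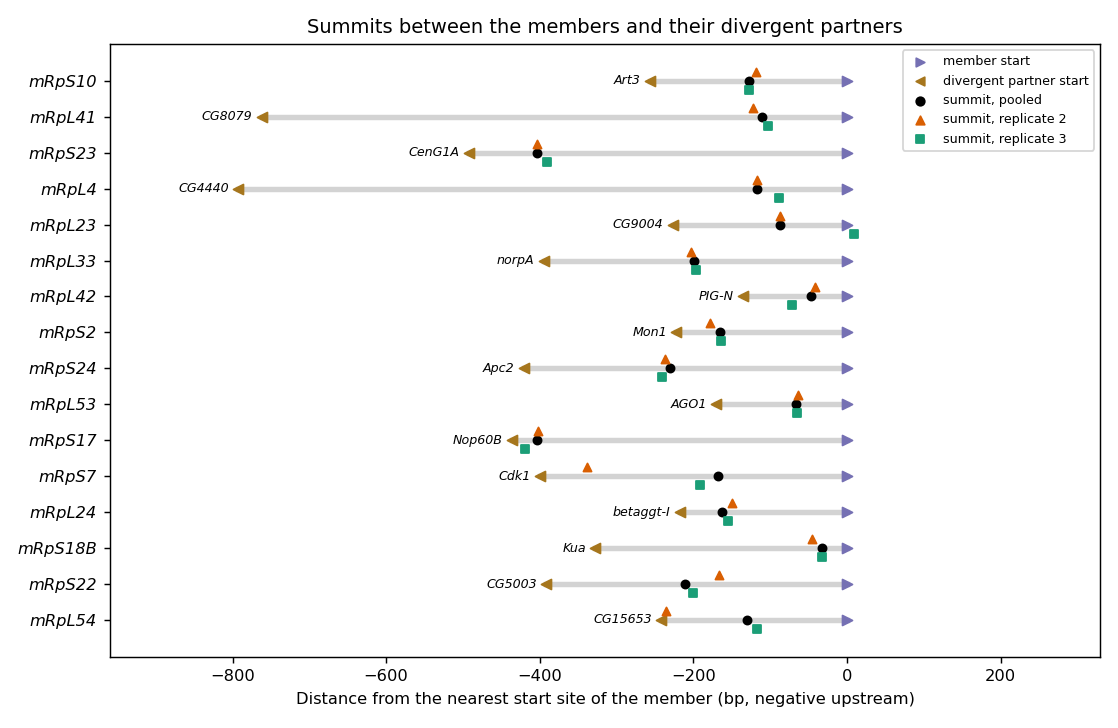
Position of the strongest summit in the pooled list (circles), replicate 2 (triangles) and replicate 3 (squares) relative to the nearest start of each of the 16 members (purple arrowhead at 0 bp), with the start of the divergent partner (brown arrowhead). The pooled summits lie between 33 and 404 bp upstream, and the replicates' summits differ by more than 50 bp at mRpL23, mRpS7 and mRpL54.

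The members with a summit were unevenly spread over the chromosomes, a grouping made after the values were seen. On chromosome 2, 11 of 24 members had an optimal summit (45.8%, interval 25.6 to 67.2%), 6 of 12 on arm 2L and 5 of 12 on arm 2R, against 11.6% of protein-coding genes of that chromosome. On chromosomes 3 and X, 5 of 49 members did (10.2%, interval 3.4 to 22.2%), against 13.0% of protein-coding genes there. These 5 were mRpL23 on 3L (1 of 17), mRpS10, mRpS22 and mRpS24 on 3R (3 of 21), and mRpL33 on X (1 of 11). Both sets had many divergent starts within 500 bp, 19 of 24 members on chromosome 2 and 34 of 49 on the others. With such a start, 9 of the 19 (47.4%) and 5 of the 34 (14.7%) had a summit, against 24.4% of protein-coding genes with a divergent start on all chromosomes. A pooled region of any strength was present at 22 of 24 and at 35 of 49 members, respectively, against 48.9% of all protein-coding genes.

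Promoter windows from 250 bases before to 50 after the first start were searched on both strands for 8 motifs in the RefSeq sequence. TATCGATA, the DRE bound by Dref, was in 15 of 73 members (20.5%) and in 9.36% of protein-coding genes. It was in 3 of 16 members with an optimal summit (18.8%: mRpL4, mRpS18B and mRpS23) and in 12 of 57 without (21.1%), against 16.2% of all genes with an optimal summit and 19.7% of those that also have a divergent start within 500 bp. Windows with CGATA, a core motif of BEAF-32, which also occurs inside every DRE, numbered 12 of 16 (75.0%) and 31 of 57 (54.4%), against 57.0% of all genes with an optimal summit and 47.3% of all genes. GGTCACAC, the core of Motif 1 bound by M1BP, was in 0 of 16 and 8 of 57 (14.0%), against 11.1% and 7.69%. GAGAG, bound by Trl and Clamp, was in 3 of 16 (18.8%) and 9 of 57 (15.8%), against 31.2% and 29.7%. Near the summits the order for GAGAG was the other way, as given below. In genes with an optimal summit and a divergent start within 500 bp, CGATA was in 62.2%, GGTCACAC in 11.2% and GAGAG in 26.3%.

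In the same promoter windows, TATAAA was in 9 of 16 members with a summit (56.2%) and 25 of 57 without (43.9%), against 45.8% of all genes. CACGTG, the E-box bound by Myc, was in 1 of 16 (mRpL23) and 4 of 57 (mRpL16, mRpL27, mRpS11 and mRpS14), against 4.2%. The ewg motif, GCGC and GCGC with 2 free bases between, was in mRpL52 alone, against 0.924% of all genes, and the Zelda motif CAGGTAG in no member, against 1.64%. Within 100 bases of the summit itself, the DRE was at 2 of 16 members, mRpS17 and mRpS18B (12.5%, against 9.98% of all genes with an optimal summit). Of these, mRpS18B alone also had it in the promoter window. Near the summits CGATA was at 7 members (43.8%, against 43.0%), TATAAA at 6 (37.5%, against 34.9%) and GAGAG at 5 (31.2%, against 22.9%). Median GC content of the promoter windows was 33.2% in members with a summit, 35.7% in members without, 37% in all genes with a summit and 38% in all protein-coding genes. A match is a description of letters and not of binding by the named factor.

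**Figure D4:**
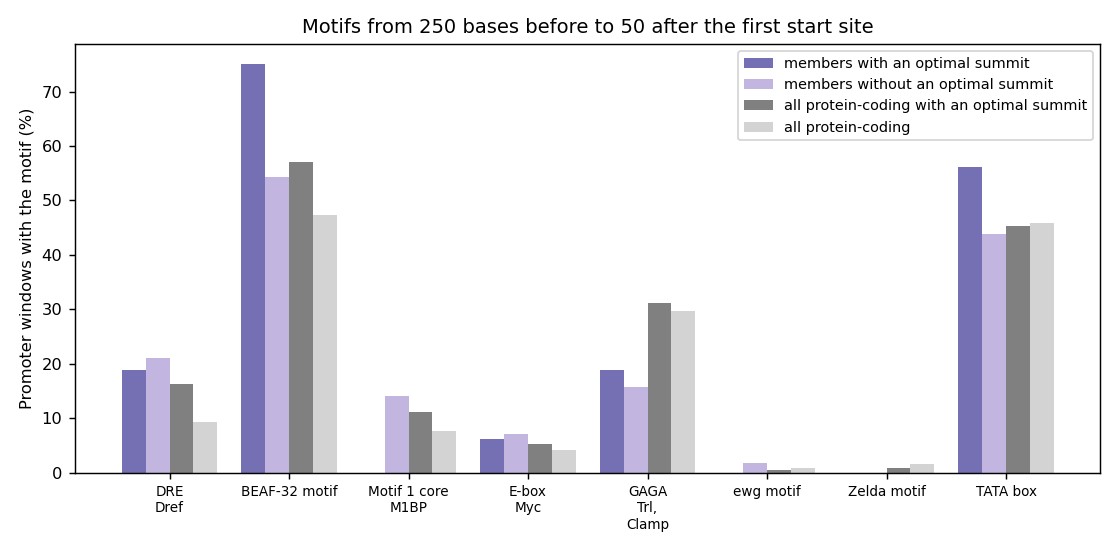
Percent of promoter windows, from 250 bases before to 50 after the first start site, with each of 8 motifs on either strand, for the 16 members with an optimal summit, the 57 without, the 1754 protein-coding genes with one, and all 13968. GAGAG is in 18.8% and 15.8% of the member windows and 31.2% and 29.7% of the others, and the DRE in 18.8% and 21.1% of member windows, 16.2% of the 1754 and 9.36% of all.

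Other genes of mitochondrial gene expression were counted in the same way, beside the 12.6% of all protein-coding genes. Of 28 genes for mitochondrial translation factors and tRNA charging, 2 had an optimal summit (7.14%, interval 0.877 to 23.5%): ArgRS-m, the arginyl-tRNA synthetase, with a signal of 161.4 (rank 1668), and PheRS-m, the phenylalanyl-tRNA synthetase, with 139.2 (rank 2285). Any pooled region was present at 14 of the 28 (50%), near the 48.9% of all protein-coding genes. Of 20 genes for the upkeep of mitochondrial DNA and RNA, 5 had an optimal summit (25%, interval 8.66 to 49.1%), and 17 had a pooled region (85%). The intervals of both lists overlap each other and that of the mitochondrial ribosomal protein genes, and both hold the share of all genes. No test was made between lists. GatC and PolG2 have the same pooled region (rank 10440), which is counted in both lists. The 4 of highest signal were SLIRP2 at 447.5 (rank 122), PNPase, the polynucleotide phosphorylase, at 313.4 (rank 339), scu at 202.7 (rank 978) and mtSSB, the single-strand DNA-binding protein of the mitochondrial genome, at 168.7 (rank 1500). The cytosolic ribosomal protein genes had an optimal summit in 52 of 93 cases (55.9%, interval 45.2 to 66.2%), with a median signal of 231.6. A pooled region was present at 93.5% of them.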

How the data were processed

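ADD1-GFP ChIP-seq was measured in 2 samples of whole embryos. The authors deposited region lists in the narrowPeak layout on dm6, per the labels and file names, as peaks and background prepared for IDR (irreproducible discovery rate) and as optimal IDR-thresholded peaks. Each region's signal is the authors' value on an unstated scale. The deposited −log10 of the q-value takes few values at the strong end and was not used for ranking. Which aligner, caller and IDR threshold were used is not stated in the sources read. A further file from which both replicate lists derive has no stated role.

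Summits (column 2 plus column 10, written 1-based) were compared with Ensembl release 115 start sites of 13968 protein-coding genes, and every region end lay within the RefSeq chromosome lengths. The summit assignment was tested on simulated regions. Python 3.11.15, pandas 2.3.3, numpy 2.4.6, scipy 1.17.1 and matplotlib 3.10.9 were used. Shares are given beside those of all protein-coding genes, with no test. Members, gene lists and motifs were chosen with earlier results of these data known. Named were all members with an optimal summit, the 6 next by pooled rank, those without a region in any list, tko, bonsai and up to 4 genes of each further list by signal. The stalk genes and single motif carriers were named after their values were seen. Of the further lists, 28 of 31 names of translation factors and tRNA charging (not mEFG2, mtRF1 and HisRS-m) and 20 of 21 of DNA and RNA upkeep (not ppr) matched the annotation. All 45 names of proteins with bacterial counterparts matched.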

Additional observations from a re-analysis of the deposited data

How the results depend on the processing

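The count of 16 members (21.9%) fell to 8 (11%) when a summit went to the nearest start site only, against 9.08% of protein-coding genes, with mRpL24, mRpL33, mRpL54, mRpS2, mRpS17, mRpS22, mRpS23 and mRpS24 lost. By construction these were the members whose divergent partner started closer to the summit. It was 9 (12.3%) with the stronger 1239 optimal peaks, against 6.59%, and the same 9 members (12.3%, against 8.48%) with optimal peaks that overlap the strongest regions of both replicates, fewer peaks in each case. Without replicate 2 the count was 14 and without replicate 3 it was 15, with 12 of the 16 kept each time; the shares were 19.2% and 20.5%. Windows of 200 bp and 1000 bp, the overlap of the peak interval with a start, and the first start of each gene gave 12 to 16 members and in each case a share above that of all protein-coding genes. The small subunit count of 8 was 4 within 200 bp and 3 by the nearest start, while the large subunit count was 8 and 5. Without replicate 2 the small subunit count was 5 of 26 and the large 9 of 47, so the higher small subunit share was not seen there; without replicate 3 the counts were 6 and 9. Counting mRpS18A and mRpS30 with the large subunit moved neither. The cause of the spread between replicates was not tested. No paired analysis was possible because there was 1 group. With 2 replicates, no read counts and no control sample analysed, the precision of single signals is unknown.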
